A study of Homo sapiens with 6 samples.

Results

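The 40 genes described here encode the glucose transporters and glycolytic enzymes (23 genes) and the subunits, oxygen sensors and other target genes of the hypoxia-inducible factors, HIF (17 genes). They were taken by gene name from a count table of 58735 genes, and all 40 passed the filter on low counts, which left 17574 genes to test. RNA sequencing was performed on 6 libraries of human colorectal cancer cells, a cell line that the labels name sw480, 3 with CNOT7 knockdown and 3 CNOT7 controls. None was treated. CNOT7 is a deadenylase of the CCR4-NOT complex, which shortens the poly(A) tails of mRNA, and the study examined its role in the response of colorectal cancer to radiotherapy. According to the study's methods, knockdown lines were stable lines that carry a short hairpin RNA (shRNA) against CNOT7 in a lentiviral vector with copGFP and puromycin resistance. The control columns carry the tag shNc, and colorectal lines were grown in RPMI-1640 with fetal bovine serum. The study's text names HCT116 for its RNA sequencing, so the line is given here as labelled. Which of the study's shRNAs each knockdown library carries, and whether the libraries came from separate cultures, is not given in the sources used here. The p-values therefore measure the spread between these samples, which may be technical.

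Glycolysis converts glucose to pyruvate, and tumour cells often run it at a high rate and turn much of the pyruvate into lactate even where oxygen is present. HIF is a transcription factor made of an oxygen-regulated alpha subunit, HIF1A or EPAS1 (HIF-2 alpha), and a stable partner, ARNT. When oxygen is plentiful, the prolyl hydroxylases EGLN1 to EGLN3 mark the alpha subunit for destruction through VHL, and when oxygen is low, HIF accumulates and raises the transcription of glycolytic genes and of genes for pH control, angiogenesis and mitochondrial turnover.

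CNOT7, the targeted gene, was read at 169, 191 and 176 CPM (read counts normalised for library size) in the control libraries and at 43.4, 47.2 and 38.6 CPM in the knockdown libraries, so 24.1% of the control level was left. Library totals ran from 23788451 to 25982493 counts in control and from 27523812 to 29104872 counts in knockdown. Mitochondrial genes took 6.36% to 6.88% of the control counts and 6.54% to 7.40% of the knockdown counts. The epithelial markers EPCAM, KRT8 and KRT18 were read at 212, 2750 and 2025 CPM in control, whereas PTPRC (blood), DCN and LUM (fibroblasts) lay at or near 0, and the colonocyte keratin KRT20 at 0.053 CPM. CDX2, an intestinal transcription factor, was at 41.4 CPM, the fibroblast and endothelial markers COL1A1 and VWF were at 8.43 and 1.76 CPM, and CD3E and PECAM1 were below 1 CPM. Of the 6 tested epithelial markers, KRT8 was called lower (log2 fold change -0.15), and CDH1 (0.51) and VIL1 (0.72) were called higher in knockdown, and their part in the results below was not tested.

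Among the 40 genes, 13 were called higher and 7 lower in CNOT7 knockdown cells, and 20 were not called. A call is an adjusted p under 0.05 in the edgeR quasi-likelihood test with Benjamini-Hochberg adjustment over all tested genes. Over all tested genes, 13.3% were called higher, 11.9% lower and 25.2% in either direction. Of the 10027 genes with at least 10 CPM in control, 11.7% were called higher and 18.1% lower. At that level lay 34 of the 40 genes, 10 called higher and 7 lower. The values of knockdown and control libraries did not overlap for 23 of the 40 genes, against 38.8% of all tested genes. The direction was mixed: the median log2 fold change of the 40 genes was 0.024, next to 0.0039 over all tested genes. In glycolysis, 5 of 23 genes were called higher and 6 lower (median 0.011), with changes between -0.51 and 0.46. In the HIF group, 8 of 17 genes were called higher and only HIF1A lower (median 0.21), with changes between -0.35 and 1.21. In bulk RNA, fewer cells that express a gene and less RNA of that gene per cell cannot be told apart. Of all genes called, 52.6% were higher, and 64.6% with upper-quartile scaling in place of TMM; the counts of called members were the same under both scalings.

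**Figure D1:**
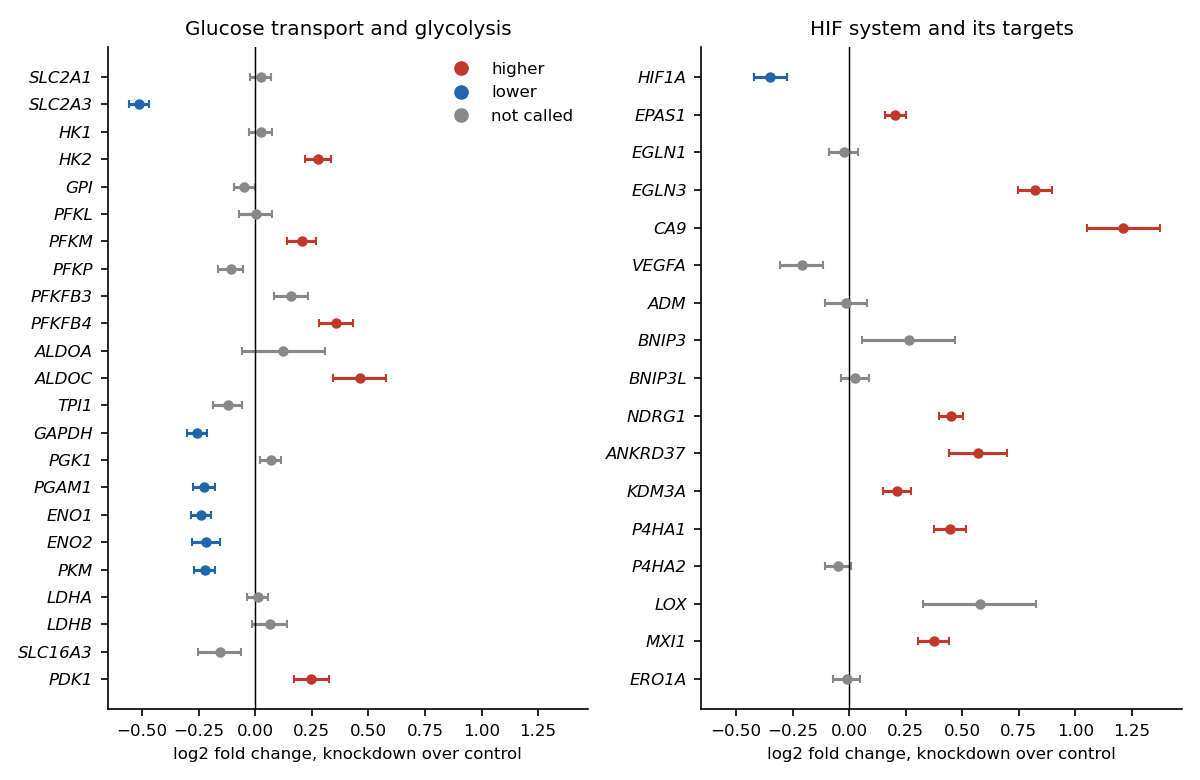
Log2 fold change of knockdown over control (x axis) for each gene in pathway order (y axis), with bars for the standard error; red marks genes called higher, blue lower and grey not called. The enzymes from GAPDH to PKM other than PGK1 lie left of 0, between -0.26 and -0.22, while CA9 (1.21) and EGLN3 (0.82) lie farthest to the right.

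Glucose enters these cells through facilitative transporters, and the 2 transporter genes behaved differently. SLC2A3 (GLUT3, a high-affinity transporter, chr12:7919230-7936275 on GRCh38) was read at 1439, 1485 and 1468.5 CPM in the control libraries and 1023, 1038 and 1019 CPM in the knockdown libraries. The control values lay far above those of the knockdown libraries, with little spread in either group. It fell by 29.9%, with a log2 fold change of -0.51 ± 0.044 (± SE, as for all log2 fold changes here) and an adjusted p of 2.17e-07. Reads can be split between SLC2A3 and its near-identical neighbour SLC2A14, which was at 5.25 CPM in control and 3.98 CPM in knockdown and was not called (-0.40, adjusted p 0.138). SLC2A1 (GLUT1, the widely expressed basal transporter, chr1:42925375-42959176) was read at 1705, 1596 and 1659.9 CPM in the control libraries and 1675, 1624.5 and 1744 CPM in the knockdown libraries. The SLC2A1 groups overlapped, and the 95% interval of the change ran from -5.07% to 8.84% (adjusted p 0.766).

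Hexokinase traps glucose in the cell by phosphorylation. HK2, the hexokinase that HIF induces in many tumours (chr2:74833981-74893359), was read at 86.9, 85.1 and 87.8 CPM in the control libraries and 109, 98.4 and 108 CPM in the knockdown libraries. Every knockdown library lay above every control library, and HK2 rose by 21.3% (log2 fold change 0.28 ± 0.059, adjusted p 0.00209). HK1, the housekeeping isoform, was not called (from 193 to 196 CPM, log2 fold change 0.024), and neither was GPI, which isomerises the trapped glucose phosphate (from 663 to 641 CPM, -0.049).

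The committed step of glycolysis is catalysed by phosphofructokinase and tuned by the PFKFB enzymes, which make and degrade its strongest activator, a fructose bisphosphate. PFKFB4 (chr3:48517684-48562015) was read at 29, 29.5 and 30.2 CPM in the control libraries and 39.2, 34.3 and 39.9 CPM in the knockdown libraries. The groups did not overlap, and PFKFB4 rose by 28% (log2 fold change 0.36 ± 0.076, adjusted p 0.00227). PFKFB3, the isoform with the strongest kinase activity, was read at 38.3, 35.4 and 39.9 CPM in the control libraries and 45.6, 40.6 and 40.6 CPM in the knockdown libraries. Its knockdown values lay just above the control values, but the log2 fold change of 0.16 ± 0.075 missed the threshold (adjusted p 0.136). Of the phosphofructokinase subunits, the muscle form PFKM was called higher (from 136 to 156 CPM, log2 fold change 0.21 ± 0.063, adjusted p 0.0239). The platelet form PFKP (-0.11, adjusted p 0.166) and the liver form PFKL (0.0013, adjusted p 0.992) were not called. The PFKM call was lost without control replicate 2 (adjusted p 0.0756), control replicate 3 (0.0915), knockdown replicate 1 (0.114) or knockdown replicate 3 (0.125).

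Aldolase splits the hexose into the triose phosphates that TPI1 interconverts. ALDOC, the brain-type aldolase (chr17:28573115-28577264), was low, at 7.74, 6.11 and 7.38 CPM in the control libraries and 9.54, 9.93 and 9.8 CPM in the knockdown libraries. All knockdown libraries exceeded all control libraries, with a log2 fold change of 0.46 ± 0.12 and an adjusted p of 0.00728. ALDOA, normally the main aldolase of most cells, was read at only 3.06 CPM in control and 3.35 CPM in knockdown. Its annotation shares 93.8% of its coding bases with another gene on the same strand, AC093512.2 (2.78 and 2.36 CPM), so its count is uncertain. TPI1 was not called (from 723 to 665 CPM, -0.12, adjusted p 0.189).

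The enzymes that carry glyceraldehyde phosphate to pyruvate are those where glycolysis yields ATP, and 5 of the 6 genes were called lower. GAPDH (chr12:6533927-6538374), the dehydrogenase often used as a reference gene, was read at 2569.6, 2486 and 2470.3 CPM in the control libraries and 2077, 2102 and 2118 CPM in the knockdown libraries. The groups were well apart, and GAPDH fell by 16.3% (log2 fold change -0.26 ± 0.043, adjusted p 0.000263). Its 62 annotated pseudogenes together held 0.231% of the reads assigned to GAPDH and these copies. PGAM1 (phosphoglycerate mutase) went from 374 to 319 CPM (log2 fold change -0.23 ± 0.048, adjusted p 0.00211). ENO1 (enolase) went from 2233.5 to 1889 CPM (log2 fold change -0.24 ± 0.044, adjusted p 0.000561), and PKM (pyruvate kinase) from 2033 to 1742 CPM (log2 fold change -0.22 ± 0.046, adjusted p 0.0019). For these genes each knockdown library was below each control library. ENO2, the neuronal enolase, was also called lower (from 108 to 92.5 CPM, log2 fold change -0.22 ± 0.063, adjusted p 0.0167). PGK1, the phosphoglycerate kinase between GAPDH and PGAM1, was not called at 644 ± 6.94 CPM in control and 675 ± 7.55 CPM in knockdown (SD, n = 3 libraries each), with a log2 fold change of 0.068 ± 0.046 and an adjusted p of 0.307 in the edgeR test, although its values did not overlap.

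Lower calls were common among strongly expressed genes. Of the 2455 genes with at least 100 CPM in control, 27% were called lower and 8.15% higher. Of the 69 genes with at least 1000 CPM in control, 40.6% were called lower and 8.7% higher. The 6 members at that level were SLC2A1, SLC2A3, GAPDH, ENO1, PKM and LDHA, of which 4 were called lower. With the trend of the log ratio with abundance removed by cyclic loess, the calls of SLC2A3 (-0.43), GAPDH (-0.17), PGAM1 (-0.16), ENO1 (-0.16) and PKM (-0.14) stood, with adjusted p of at most 0.0483. The ENO2 call was lost there (adjusted p 0.0672), and also without control replicate 1 (0.0878), control replicate 3 (0.0641) or knockdown replicate 1 (0.0737).

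Pyruvate is reduced to lactate by lactate dehydrogenase or oxidised inside the mitochondrion by pyruvate dehydrogenase, which PDK1 switches off. LDHA (chr11:18394388-18408425), a classical HIF target, was read at 1509, 1597 and 1537 CPM in the control libraries and 1538, 1627 and 1514.5 CPM in the knockdown libraries. The groups overlapped throughout, and the 95% interval of the change ran from -5.89% to 7.89% (adjusted p 0.895). PDK1 (chr2:172555373-172608669) was read at 34.9, 40.5 and 38.3 CPM in the control libraries and 41.4, 47.7 and 46 CPM in the knockdown libraries. The lowest knockdown library was just above the highest control library, and PDK1 was called higher by 18.8% (log2 fold change 0.25 ± 0.077, adjusted p 0.025). That call was lost without control replicate 1 (adjusted p 0.13), control replicate 3 (0.0742), knockdown replicate 2 (0.0615) or knockdown replicate 3 (0.0666). LDHB (from 44.8 to 46.8 CPM, 0.064) was not called. On the same strand, 93.5% of its coding bases are shared with AC010197.2, which held at most 1 count in any library. How reads in shared bases were assigned is not given, so the LDHB count is uncertain. SLC16A3 (MCT4, the lactate exporter of glycolytic cells) was not called either (from 168 to 151 CPM, -0.16 ± 0.095, adjusted p 0.248). Without knockdown replicate 3 it was called lower (-0.28, adjusted p 0.024), and also without a filter on low counts (-0.18, adjusted p 0.0318). Without knockdown replicate 2 the log2 fold change was -0.042 (adjusted p 0.729), and without control replicate 1 it was -0.075 (adjusted p 0.63).

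**Figure D2:**
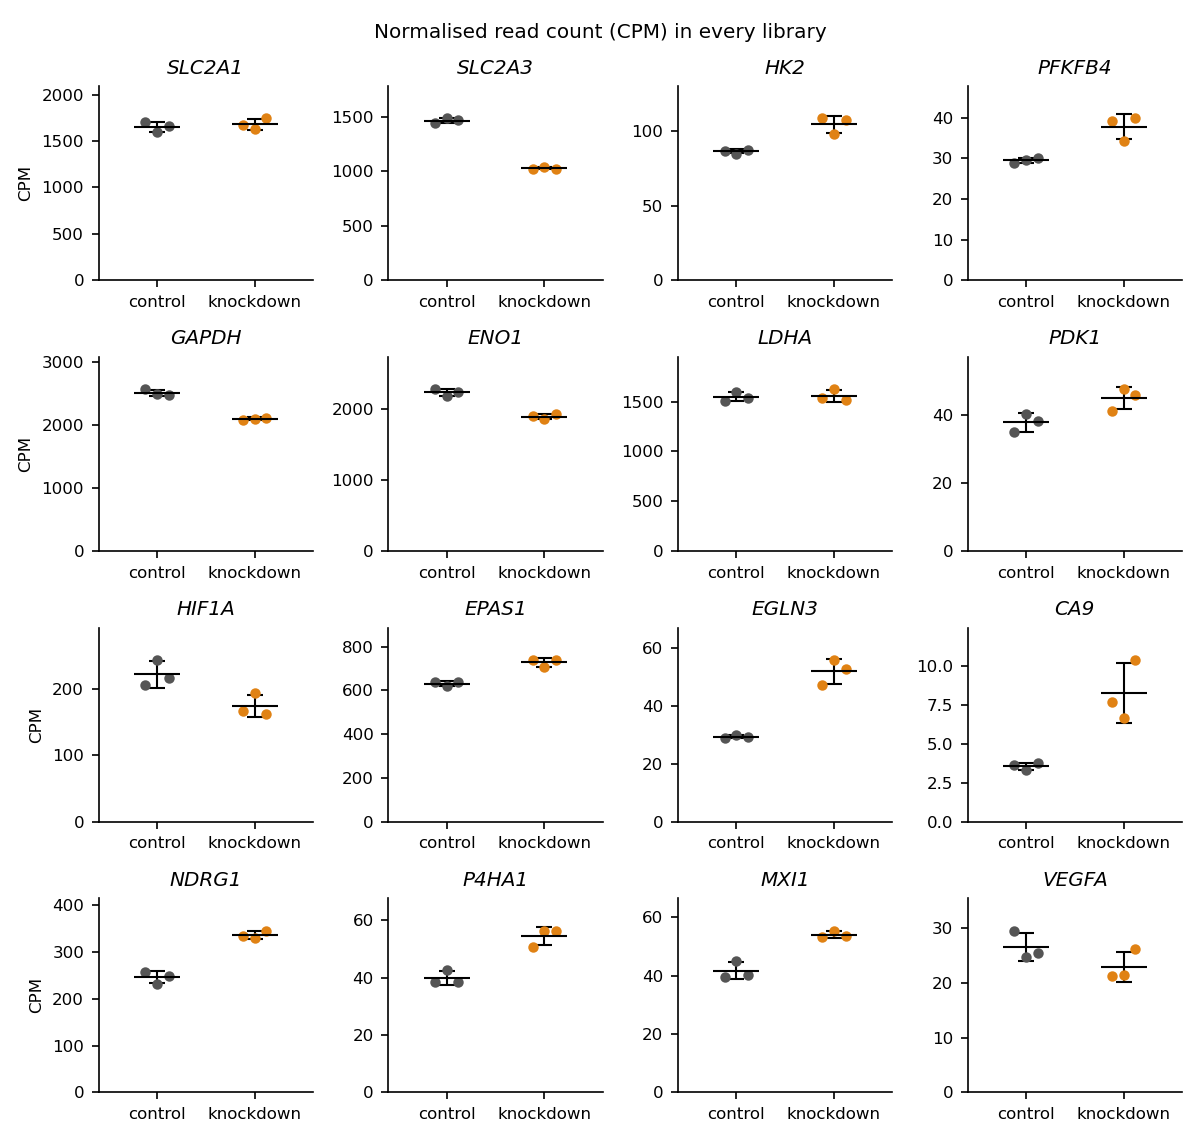
Normalised read count in CPM (y axis, from 0) in the 3 control and 3 knockdown libraries for 16 of the genes, with the mean and SD as black bars. SLC2A3, GAPDH, ENO1 and HIF1A are lower and HK2, PFKFB4, PDK1, EPAS1, EGLN3, CA9, NDRG1, P4HA1 and MXI1 higher in every knockdown library, while the groups overlap for SLC2A1, LDHA and VEGFA.

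The mRNAs of the HIF alpha subunits changed in opposite directions. HIF1A (chr14:61695513-61748259) was read at 205, 244 and 216 CPM in the control libraries and 167, 193 and 162 CPM in the knockdown libraries. Each knockdown value was below each control value, and HIF1A fell by 21.4% (log2 fold change -0.35 ± 0.072, adjusted p 0.00177). EPAS1 (chr2:46293667-46386703) was read at 637, 620.1 and 637 CPM in the control libraries and 738, 705 and 739 CPM in the knockdown libraries. The groups did not overlap, and EPAS1 rose by 15.2% (log2 fold change 0.20 ± 0.047, adjusted p 0.00381). These are mRNA levels, whereas the alpha subunits are controlled mainly through protein stability, which was not measured here.

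Of the oxygen sensors, EGLN3 (PHD3, chr14:33924231-34462774), which is itself a HIF target and so part of a feedback loop, was read at 29.1, 30.1 and 29.2 CPM in the control libraries and 47.4, 56.1 and 52.7 CPM in the knockdown libraries. The knockdown values all exceeded the control values by a wide margin. EGLN3 rose by 76.7% (log2 fold change 0.82 ± 0.075, adjusted p 4.22e-07). EGLN1 (PHD2), the main HIF hydroxylase in most cells, was not called (from 65.6 to 64.6 CPM, -0.023, adjusted p 0.835).

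Among the remaining 13 HIF targets, 6 were called higher and 7 were not called. CA9 (carbonic anhydrase IX, which controls pH at the cell surface, chr9:35673856-35681159) had the largest change of the 40 genes. It was read at 3.62, 3.31 and 3.75 CPM in the control libraries and 7.7, 6.67 and 10.4 CPM in the knockdown libraries. All knockdown values lay above all control values, and the spread was larger in knockdown (SD 1.91) than in control (SD 0.226). CA9 was 2.32-fold higher (log2 fold change 1.21 ± 0.16, adjusted p 3.12e-05). On the opposite strand 38.5% of its exonic bases overlap ARHGEF39, and the library kit does not mark strand. ARHGEF39 was at 36.6 CPM in control and 35.5 CPM in knockdown and was not called (-0.046, adjusted p 0.69). The part of this overlap in the CA9 result was not tested.

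ANKRD37, a small ankyrin repeat gene that is a regular part of hypoxia signatures (chr4:185396021-185400628), was read at 6.89, 8.43 and 6.66 CPM in the control libraries and 10.6, 9.53 and 12.4 CPM in the knockdown libraries. The groups were separate, with a log2 fold change of 0.57 ± 0.13 and an adjusted p of 0.0032. UFSP2, which overlaps 35.2% of its exonic bases on the opposite strand, was called higher by 0.27 on the log2 scale (adjusted p 0.0422), and its part in the ANKRD37 result was not tested. NDRG1, a stress-responsive gene strongly induced by hypoxia, was read at 258, 233 and 248 CPM in the control libraries and 335, 329 and 346 CPM in the knockdown libraries. NDRG1 was well above control in all knockdown libraries and rose by 36.7% (log2 fold change 0.45 ± 0.053, adjusted p 8.41e-06).

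P4HA1, a collagen prolyl hydroxylase subunit (chr10:73007217-73096974), was read at 38.5, 42.7 and 38.6 CPM in the control libraries and 50.8, 56.2 and 56.4 CPM in the knockdown libraries. No knockdown value fell within the control range, and P4HA1 rose by 36.4% (log2 fold change 0.45 ± 0.071, adjusted p 0.000172). MXI1, an antagonist of MYC (chr10:110207605-110287365), was read at 39.7, 45.1 and 40.3 CPM in the control libraries and 53.1, 55.4 and 53.6 CPM in the knockdown libraries. It likewise showed no overlap and rose by 29.6% (log2 fold change 0.37 ± 0.069, adjusted p 0.00066). KDM3A, a histone H3K9 demethylase, was called higher by a smaller margin (from 89.3 to 103 CPM, log2 fold change 0.21 ± 0.062, adjusted p 0.0182). The KDM3A call was lost without control replicate 1 (adjusted p 0.0986), control replicate 3 (0.0736) or knockdown replicate 1 (0.0752).

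VEGFA, the angiogenic growth factor and the best known HIF target, was read at 29.5, 24.6 and 25.4 CPM in the control libraries and 21.3, 21.4 and 26.1 CPM in the knockdown libraries. The groups overlapped, and the log2 fold change of -0.21 ± 0.096 was not called (adjusted p 0.123). Without knockdown replicate 3, its highest knockdown library, VEGFA was called lower (-0.32, adjusted p 0.0223), whereas without control replicate 1, its highest control library, the log2 fold change was -0.13 (adjusted p 0.431). ADM (adrenomedullin, from 16.7 to 16.6 CPM, -0.012), ERO1A (an oxidase of the endoplasmic reticulum, from 130.5 to 129.5 CPM, -0.01) and P4HA2 (from 145 to 139.9 CPM, -0.049) were not called. The mitophagy receptor BNIP3L was not called (from 149.5 to 152 CPM, 0.025). Its relative BNIP3 was low (from 2.69 to 3.24 CPM, 0.26 ± 0.2), and annotated BNIP3 pseudogenes took 26.0% of the counts of the gene and its copies, so its level is uncertain. LOX, which cross-links collagen, was read at only 1.21 CPM in control and 1.81 CPM in knockdown (0.58 ± 0.25, adjusted p 0.104).

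**Figure D3:**
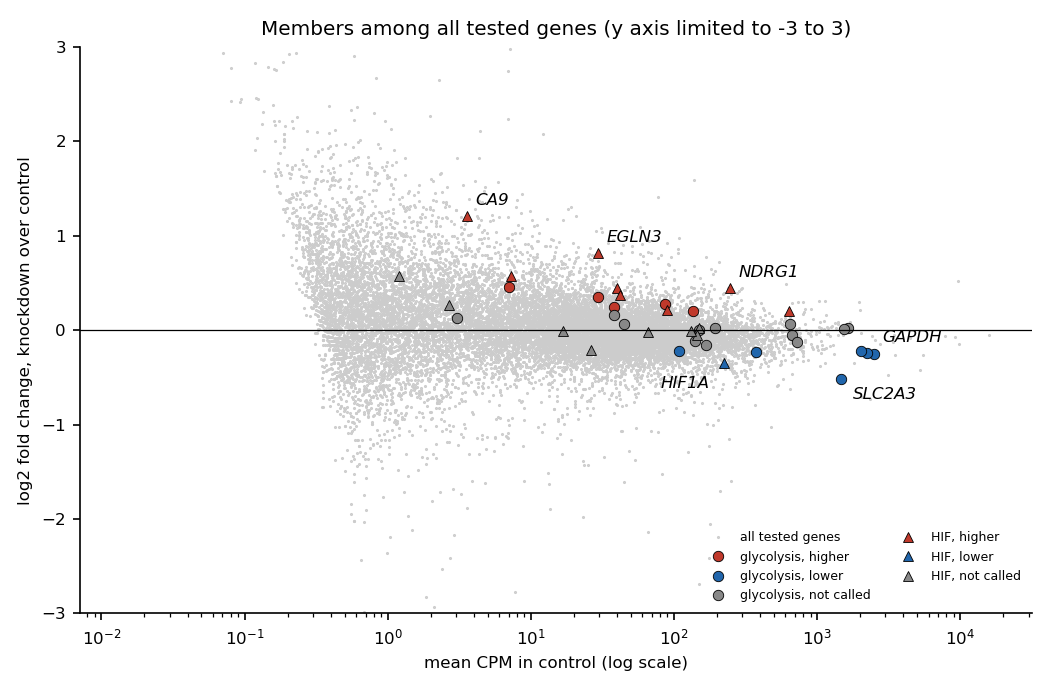
Log2 fold change (y axis, limited to -3 to 3) against mean CPM in control (x axis, log scale) for all tested genes within the axes and above 0 in control (grey), with the glycolysis genes as circles and the HIF genes as triangles; red marks genes called higher, blue lower and dark grey not called. CA9 (1.21) and EGLN3 (0.82) lie above most genes of their level, and SLC2A3 (-0.51) below most.

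HIF binds a short element whose core is ACGTG or GCGTG, and the proximal promoters of the genes with large changes are shown to set this element beside the response. CA9, EGLN3 and ANKRD37 rose most among the called HIF genes, GAPDH fell, and LDHA did not pass the test. Each window runs from 250 bases before to 50 bases after the transcription start given by RefSeq on GRCh38.p14 (the window listed first for LDHA). It is written 5′ to 3′ on the gene's strand, with every core in capitals on either strand, so that CACGT and CACGC are cores read from the opposite strand, and CACGTG counts on both. The windows are chr9:35673678-35673977, plus strand (CA9), chr14:33951025-33951324, minus strand (EGLN3), chr4:185396591-185396890, plus strand (ANKRD37), chr12:6535014-6535313, plus strand (GAPDH) and chr11:18394313-18394612, plus strand (LDHA).
CA9: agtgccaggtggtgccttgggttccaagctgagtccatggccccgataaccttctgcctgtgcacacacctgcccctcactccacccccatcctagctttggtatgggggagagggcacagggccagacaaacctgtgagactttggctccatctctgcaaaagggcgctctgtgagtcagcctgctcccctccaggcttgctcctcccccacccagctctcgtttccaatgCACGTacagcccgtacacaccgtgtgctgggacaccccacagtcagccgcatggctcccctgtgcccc
EGLN3: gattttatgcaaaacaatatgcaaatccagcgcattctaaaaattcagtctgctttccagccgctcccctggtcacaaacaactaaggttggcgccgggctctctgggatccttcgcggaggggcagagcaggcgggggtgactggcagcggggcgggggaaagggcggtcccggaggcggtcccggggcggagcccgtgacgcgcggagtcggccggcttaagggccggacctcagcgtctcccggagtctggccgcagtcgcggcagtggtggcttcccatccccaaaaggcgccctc
ANKRD37: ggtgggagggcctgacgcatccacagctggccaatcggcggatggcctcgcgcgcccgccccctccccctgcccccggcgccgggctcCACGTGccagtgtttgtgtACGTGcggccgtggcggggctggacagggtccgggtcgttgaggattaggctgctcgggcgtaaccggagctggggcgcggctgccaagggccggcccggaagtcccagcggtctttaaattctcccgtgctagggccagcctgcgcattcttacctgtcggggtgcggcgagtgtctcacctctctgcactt
GAPDH: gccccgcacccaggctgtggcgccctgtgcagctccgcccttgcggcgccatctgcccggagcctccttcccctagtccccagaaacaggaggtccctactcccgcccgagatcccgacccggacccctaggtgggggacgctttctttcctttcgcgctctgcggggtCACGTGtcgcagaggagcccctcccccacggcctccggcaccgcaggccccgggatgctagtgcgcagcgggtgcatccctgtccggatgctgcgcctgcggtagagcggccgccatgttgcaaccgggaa
LDHA: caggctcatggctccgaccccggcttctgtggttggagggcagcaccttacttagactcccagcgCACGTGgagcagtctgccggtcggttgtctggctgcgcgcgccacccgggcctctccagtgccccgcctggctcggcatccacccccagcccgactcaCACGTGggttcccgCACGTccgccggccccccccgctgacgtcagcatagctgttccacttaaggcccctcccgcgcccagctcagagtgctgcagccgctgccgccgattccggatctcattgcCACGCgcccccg

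The CA9 window held 1 core, on the opposite strand, 18 bases before the start. The ANKRD37 window held 3 core matches, 162, 161 and 143 bases before the start, the first 2 being a CACGTG palindrome read on both strands. GAPDH, which fell, held a palindrome 81 and 80 bases before the start, and LDHA held 6 matches. EGLN3, with the second largest rise, held neither core in this window, which says only that these letters are not there. The GENCODE gene models begin upstream of the RefSeq starts used here for all 5 genes, by 72 bases for CA9, 175 for LDHA, 820 for ANKRD37, 1337 for GAPDH and 511700 for EGLN3. Windows were matched for 36 of the 40 genes, all but SLC2A3, VEGFA, BNIP3L and NDRG1.

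Over the 68 windows of these genes, 47 (69.1%) held either core, compared with 48.4% of all 35116 windows. The members' windows had a median GC content of 68.4%, against 58.7% over all windows, and both cores contain a CG pair. Counted by gene, at least 1 window with a core was found for 11 of 12 genes called higher, 5 of 6 called lower and 17 of 18 not called, next to 52.4% of all 27305 genes. A gene with more windows has more room for a match. The members had 68 windows for 36 genes, against 35116 windows for 27305 genes, so these shares are not like for like. A match is a description of letters and was not tested as a binding site.

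Several steps are shared by isoforms, and their balance was followed as the share of each isoform in the summed level per length (TPM, counts divided by gene length and scaled to the same sum in each library). With 3 libraries a group, the exact two-sided permutation test cannot give a p below 0.1, and that p was obtained wherever the groups did not overlap. SLC2A1 supplied 60.7%, 58.4% and 59.6% of the TPM of the GLUT1 and GLUT3 genes in control and 68.1%, 67.1% and 69.1% in knockdown. SLC2A1 thus made up a larger share in every knockdown library (difference 8.54 percentage points, exact permutation p 0.1). HK2 made up 31.8% ± 0.833 of the hexokinase genes in control and 35.7% ± 0.968 in knockdown (SD, n = 3 libraries each, exact permutation p 0.1). PFKM made up 28.7% of the phosphofructokinase genes in control and 32.7% in knockdown, PFKP 45.3% and 41.5%, both without overlap, and PFKL 26.0% and 25.8% (exact permutation p 0.5). The PFKFB4 share of the PFKFB3 and PFKFB4 genes was 43.9% ± 1.37 in control and 47.2% ± 2.05 in knockdown, a difference of 3.35 percentage points that was 2.17 without knockdown replicate 3. ALDOC made up 75.8% of the ALDOA and ALDOC genes in control and 79.6% in knockdown (exact permutation p 0.1), a share that rests on the uncertain ALDOA count. ENO2 was a small part of enolase, at 5.60% and 5.69% (exact permutation p 0.7). LDHB was at 5.68% and 5.88% of the lactate dehydrogenase genes (exact permutation p 0.4) and BNIP3 at 1.44% and 1.69% of BNIP3 and BNIP3L (exact permutation p 0.4), with the uncertain counts named above.

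The widest difference in balance was among the prolyl hydroxylases. EGLN3 made up 31.5%, 30.6% and 30.1% of the EGLN1 and EGLN3 genes in control and 43.4%, 44.9% and 44.6% in knockdown, a difference of 13.6 percentage points (exact permutation p 0.1). EPAS1 made up 68.6%, 64.2% and 67.5% of the HIF alpha genes in control and 75.7%, 72.0% and 76.3% in knockdown. The highest control share was below the lowest knockdown share. P4HA1 made up 43.1% ± 1.48 of the P4HA1 and P4HA2 genes in control and 51.7% ± 1.99 in knockdown, and with raw counts in place of TPM the difference was 6.42 rather than 8.58 percentage points.

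**Figure D4:**
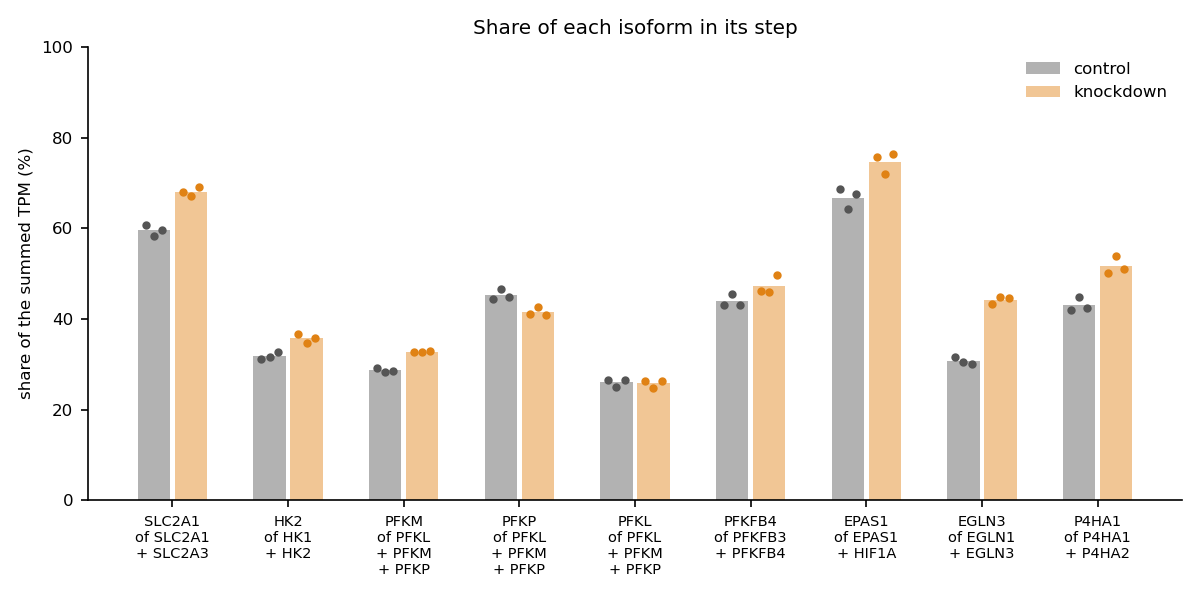
Share of each isoform in the summed TPM of the genes of its step (y axis, percent), in control (grey) and knockdown (orange), with bars for the mean and points for the 3 libraries of each group. EGLN3 shows the widest gap (30.7% and 44.3%), and the shares of PFKL overlap between groups.

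Summed over the 23 glycolysis genes, the level was 11543, 11001 and 11052 TPM in control and 10330, 9957 and 10623 TPM in knockdown. The sum includes ALDOA and LDHB, at 2.81 and 54.0 TPM in control, whose counts are uncertain for the overlaps given above. The knockdown libraries lay below the control libraries, a difference of -895 TPM, and the share of all TPM went from 1.12% to 1.03% (exact permutation p 0.1, the smallest possible). The genes from GAPDH to PKM accounted for most of it, with 6430 ± 180 TPM in control and 5683 ± 149 TPM in knockdown (SD, n = 3 libraries each). Only the sum over the 23 genes was planned. The part from GAPDH to PKM holds 5 genes called lower of 6, so its fall restates those calls. GAPDH alone stood at 3024 TPM in control, followed by ENO1 at 1521 TPM and SLC2A1 at 1258 TPM. The 17 HIF genes together stood at 1002 ± 16.4 TPM in control and 1139 ± 16.4 TPM in knockdown (exact permutation p 0.1), and the most abundant of them per length was EPAS1, at 311 TPM in control.

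Genes that neighbour these pathways were read from further lists. The shares to set beside their counts are 13.3% called higher, 11.9% lower and 25.2% in either direction over all tested genes. In the list of 34 further HIF targets, 14 were called higher and 7 lower, with a median log2 fold change of 0.13. Over the alternatives, the counts of this list ranged from 10 to 16 called higher and from 7 to 10 called lower. The largest rise was that of CA12, a carbonic anhydrase like CA9 (from 1.32 to 4.69 CPM, log2 fold change 1.82 ± 0.2, adjusted p 3e-06), and the largest fall that of CITED2, a transcriptional co-regulator that competes with HIF for its co-activator (from 24.7 to 14.6 CPM, log2 fold change -0.75 ± 0.084, adjusted p 4.57e-06). Among the HIF partners and degradation machinery, 1 of 9 tested genes was called higher and 2 lower. VHL, the ubiquitin ligase subunit that recognises hydroxylated HIF, rose (from 62.6 to 75.4 CPM, log2 fold change 0.27 ± 0.058, adjusted p 0.00242). EGLN2, the remaining prolyl hydroxylase, was called lower (from 7.69 to 5.87 CPM, log2 fold change -0.39 ± 0.13, adjusted p 0.0422). That call was lost with DESeq2 (adjusted p 0.0743), with upper-quartile factors (0.0664) and without control replicate 1 (0.201), knockdown replicate 1 (0.13) or knockdown replicate 2 (0.104). The number called lower in this list ranged from 0 to 4 over the alternatives. It was 0 without knockdown replicate 1 and 1 with DESeq2 and without control replicate 1 or control replicate 3. With upper-quartile factors RBX1, also called lower in the main edgeR test (adjusted p 0.0166), kept its call (0.0399). The number called higher was 2 without knockdown replicate 2.

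Around pyruvate, 3 of 12 genes of pyruvate dehydrogenase and its regulators were called higher and 2 lower. The number called lower was 1 without control replicate 2, control replicate 3 or knockdown replicate 1, and also with upper-quartile factors and with cyclic loess. The number called higher ranged from 2 to 4 over the alternatives. PDP2 was called higher (log2 fold change 0.21, adjusted p 0.047). That call was lost with DESeq2 (adjusted p 0.0917), with RLE factors (0.0544), without a filter on low counts (0.153) and with each of the 6 libraries left out. PDK3, a kinase that inhibits the complex like PDK1, rose (from 32 to 47.5 CPM, log2 fold change 0.57 ± 0.07, adjusted p 1.21e-05). PDP1, the phosphatase that reactivates it, fell (from 276 to 197 CPM, log2 fold change -0.49 ± 0.058, adjusted p 8.71e-06). Of 5 tested genes for lactate and pyruvate transport, SLC16A1 (MCT1) was called higher (from 352 to 410.4 CPM, log2 fold change 0.22 ± 0.058, adjusted p 0.00992), a call that was lost without control replicate 3. In the pentose phosphate pathway, 2 of 8 genes were called higher and 2 lower, led by H6PD (log2 fold change 0.29 ± 0.063, adjusted p 0.00257) and by PGD (log2 fold change -0.20 ± 0.053, adjusted p 0.00985). Both counts were 1 without control replicate 1, control replicate 3 or knockdown replicate 1. The number called higher was also 1 without knockdown replicate 3 and without a filter on low counts, and the number called lower was also 1 with upper-quartile factors and with cyclic loess. The edgeR test called 0 of 4 gluconeogenesis genes, 1 of which had an unadjusted p under 0.05, and DESeq2 also called 0. Over the alternatives, the number of these genes called lower ranged from 0 to 1, and the number called higher was 0.

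Other glycolytic isoforms and side enzymes were mostly rare, and 7 of 19 did not pass the filter. Of the 12 tested, 3 were called higher and 1 lower. LDHD, which oxidises D-lactate, rose most but from a very low level (from 0.562 to 1.23 CPM, log2 fold change 1.12 ± 0.35, adjusted p 0.027), and its call was lost with DESeq2 (adjusted p 0.0706), with cyclic loess (0.0657) and without control replicate 2 (0.0891), control replicate 3 (0.0793), knockdown replicate 1 (0.0736) or knockdown replicate 3 (0.142). PFKFB2 fell (from 53.1 to 46 CPM, log2 fold change -0.21 ± 0.065, adjusted p 0.0269), and its call was lost without control replicate 1, control replicate 3 or knockdown replicate 1, and also with upper-quartile factors and with cyclic loess. The number called higher was 1 with DESeq2, with cyclic loess and without control replicate 2, control replicate 3 or knockdown replicate 1.

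**Figure D5:**
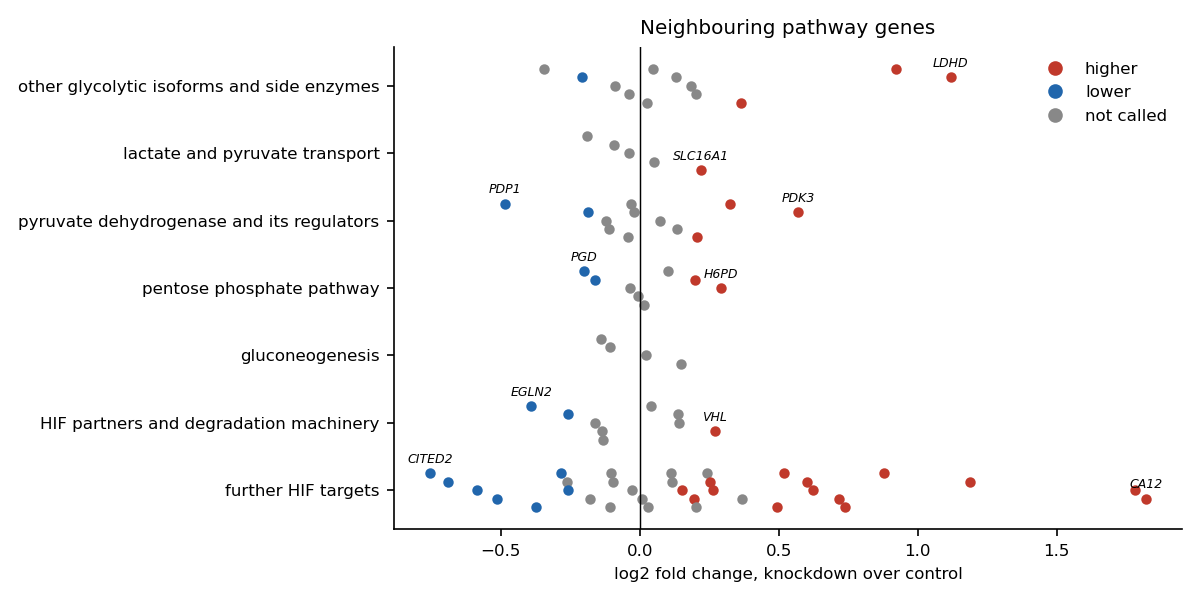
Log2 fold change of knockdown over control (x axis) for the tested genes of each further list (y axis, with points spread vertically for sight only); red marks genes called higher, blue lower and grey not called, with the outermost called genes named. The further HIF targets spread from -0.75 (CITED2) to 1.82 (CA12), and no gluconeogenesis gene is called.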

How the data were processed

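Total RNA of 6 libraries (3 control, 3 knockdown) was extracted with TRIzol and prepared with a NEBNext Ultra RNA kit, which does not mark strand. The submitters' processing notes name CASAVA 1.8, fastp, HISAT2 2.0.5, featureCounts 1.5.0-p3 and DESeq2 1.20.0, and the GRCh38 build. The authors deposited raw counts per gene, without normalization, with a gene length in bases. The settings for strand, overlaps and multiply mapped reads are not given in the sources used here. The number of unused per-sample columns was 0. Gene identifiers and positions matched GENCODE release 29 for 58724 of 58735 genes.

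Knockdown was compared with control by edgeR 4.0.16 in R 4.3.3 (filterByExpr, TMM factors, glmQLFit, glmQLFTest), without a term for the replicate number. Benjamini-Hochberg adjustment ran over 17574 genes, and an adjusted p under 0.05 made a call. The scripts were tested on simulated data. SE values were derived from each gene's log2 fold change and its F statistic. CPM values are scaled by the TMM factors. TPM was computed from the counts and gene lengths, and isoform shares were compared by the exact permutation test (numpy 2.4.6). Totals were 23788451 to 29104872 counts per library. Replicate counts differed by more than sampling noise. Promoter windows come from RefSeq.

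The 13 alternatives were DESeq2 1.42.0, RLE factors, upper-quartile factors, no filter on low counts, at least 10 counts in every library, cyclic loess offsets (limma 3.58.1), a replicate block, and each of the 6 libraries left out in turn. The members, the further lists and the tests were chosen with earlier results of these data known. Values in every library are given for members called with an absolute log2 fold change of at least 0.25 and for SLC2A1, HK2, PFKFB3, PFKFB4, GAPDH, LDHA, PDK1, HIF1A, EPAS1, EGLN3, CA9 and VEGFA, and from each further list the called genes with the largest rise and fall are named. SLC2A14, AC093512.2, AC010197.2, ARHGEF39 and UFSP2 were named as overlapping or near-identical genes.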

Additional observations from a re-analysis of the deposited data

How the results depend on the processing

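Of the 20 called genes, 16 stayed past the threshold in each of the 13 alternatives and none changed sign in any of them; PFKM, ENO2, PDK1 and KDM3A were the exceptions, as given with their values above. DESeq2 gave the same call for all 40 genes. The log2 fold changes that turned sign all belonged to genes without a call. With cyclic loess these were GPI (0.026), ALDOA (-0.0023), EGLN1 (0.017), P4HA2 (0.0062) and ERO1A (0.043), with DESeq2 PFKL (-0.011) and LDHA (-0.0015), with RLE factors PFKL (-0.0063), without a filter PFKL (-0.017) and LDHA (-0.0058), and with upper-quartile factors EGLN1 (0.017), ADM (0.028) and ERO1A (0.0305). With 1 library left out, the value ranged from -0.0085 to 0.047 for SLC2A1, from -0.068 to 0.078 for PFKL, from -0.045 to 0.28 for ALDOA, from -0.021 to 0.032 for LDHA, from -0.0054 to 0.13 for LDHB, from -0.061 to 0.0042 for EGLN1, from -0.088 to 0.025 for ADM, from -0.048 to 0.058 for BNIP3L and from -0.047 to 0.039 for ERO1A. The median of the glycolysis genes was 0.052 with upper-quartile factors and 0.058 with cyclic loess, and ran from -0.045 (without control replicate 2) to 0.0304 with a library left out. The median of the HIF genes was 0.25 and 0.26 under the same settings, and ran from 0.17 to 0.21. The number of glycolysis genes called higher ran from 3 to 4 with a library left out, being 3 without control replicate 3 or knockdown replicate 3, and the number of HIF genes called lower from 1 to 2. The cause of these shifts was not tested. PGK1 was called higher with cyclic loess (0.14, adjusted p 0.0266).

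With a replicate block, 6508 genes were called in place of 4424, the HIF genes called lower numbered 2 (HIF1A and VEGFA) and PFKL stood at -0.00056. The glycolysis genes called lower numbered 9 in place of 6, with TPI1 (adjusted p 0.0037), SLC16A3 (0.0033) and PFKP (0.0261) added, and those called higher 6 in place of 5, with PFKFB3 (0.0289) added. Same-numbered libraries deviated together with correlations of 0.0228, 0.153 and -0.0153. Of the 6 libraries, 2 correlated best with their own number, and these were the libraries numbered 2. The numbers were not taken as pairs. In both groups library 2 was the lowest for TPI1 (674 CPM in control, 597 CPM in knockdown) and the highest for HIF1A (244 and 193 CPM). A shift shared by the libraries numbered 2 alone was not tested. The summed TPM of the 23 glycolysis genes, of GAPDH to PKM and of the 17 HIF genes, recomputed with each library left out as an alternative added after seeing the data, kept its direction. The groups did not overlap for any of these sums, so leaving out a library could not have changed the direction. The p of 0.1 for shares is the smallest that 3 libraries a group allow, and genes at a few CPM, such as LOX and BNIP3, have wide errors at this depth.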
